A study of Mus musculus with 18 samples.

Results

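Lungs of mice labelled as lacking one or the other β-arrestin were compared directly after chronic hypoxia, without going through wild type animals. Poly(A) RNA was sequenced from 3 lungs labelled β-arrestin 2 -/- and kept in hypoxia (B2H) and from 3 lungs labelled β-arrestin 1 -/- and kept in hypoxia (B1H), which are 6 of the 18 libraries of the series and were chosen by their labels alone. All 12 libraries used were given by their labels as lung of male C57BL/6 mice aged 12 to 16 weeks. Hypoxia was 4 weeks at a pressure equal to that at 18000 feet, with an alveolar oxygen pressure of about 70 mmHg. The same lines in normoxia, at about 150 mmHg, gave 3 libraries labelled β-arrestin 2 -/- (B2N) and 3 labelled β-arrestin 1 -/- (B1N), which served as a further comparison of the lines in separate libraries. The labels do not say how either mutation was made, whether the lines were littermates or at which hour the lungs were taken, and they do not state that each replicate is a separate animal, so the p-values below speak only of how these libraries vary, which may be in part technical. Each library comes from about 30 mg of whole lung, in which fewer cells of a type and less RNA per cell cannot be told apart. Since Arrb2 RNA was not shown to be reduced in the libraries labelled for its loss, B2H, B1H, B2N and B1N stand throughout for libraries so labelled.

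β-arrestin 1 (Arrb1) and β-arrestin 2 (Arrb2) are cytosolic proteins that bind activated, phosphorylated G protein-coupled receptors, uncouple them from G proteins, take them into endocytosis and act as scaffolds for kinases. In the lung they act on the receptors for endothelin, angiotensin and thromboxane, which set airway and vessel tone, and on chemokine receptors. Sustained hypoxia is known to narrow and remodel pulmonary arteries. Knockout lines usually keep, around the mutated gene, a stretch of chromosome from the strain in which the mutation was made, and mouse strains differ at the H2 complex, the mouse major histocompatibility complex on chromosome 17.

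The arrestin genes themselves were read first. Arrb1, on chromosome 7, stood at 371, 364 and 359 CPM (counts scaled to the size of the library) in B2H and at 83.7, 88.8 and 90.7 CPM in B1H. The groups did not overlap, and Arrb1 was 4.16-fold higher in B2H, a log2 change of 2.05 ± 0.11 (SE; n = 3 each; adjusted p = 3.71e-06). The RNA was thus reduced in the libraries labelled β-arrestin 1 -/- but was not at 0. Arrb2, on chromosome 11, stood at 30.7, 37.8 and 34.6 CPM in B2H and at 39.2, 37.8 and 73.1 CPM in B1H. Its log2 change was -0.54 ± 0.22 with an adjusted p of 0.224, and it was -0.14 without the B1H library at 73.1 CPM. Arrb2 RNA was therefore not shown to be reduced in the libraries labelled β-arrestin 2 -/-; in normoxia its log2 change was 0.28 (adjusted p = 0.48). The total per gene does not show whether those transcripts are intact.

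Estimated counts summed to 23168845 to 25980876 per library in B2H and to 16806806 to 22816424 in B1H. The B1H library of lowest total, replicate 2, stood apart, with correlations of log2 CPM of 0.919 to 0.952 with the other 5 hypoxia libraries, which correlated with each other at 0.966 to 0.995. The main counts that move without it are given without it as well. The 12 markers of alveolar type 1 cells were all detected and summed to 12000 to 12200 CPM in B2H and 11100 to 15300 CPM in B1H. The 12 alveolar type 2 markers tested summed to 11900 to 15500 CPM in B2H and 14500 to 20500 CPM in B1H. No member of either set was called between the lines.

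Of 15250 genes tested, 492 (3.23%) differed between B2H and B1H at an adjusted p below 0.05 in edgeR's quasi-likelihood test, 223 (1.46%) higher and 269 (1.76%) lower in B2H. Such genes are termed called. The median log2 change over all genes tested was -0.02, and 186 of the 492 changed by at least 1 on the log2 scale. The CPM of the 2 groups did not overlap for 3174 genes (20.8%). Without B1H replicate 2 the count called was 533, of which 384 were among the 492. The count differed between fits: DESeq2 called 1076, while a fit of the 6 hypoxia libraries alone called 67, of which 64 were among the 492. In normoxia, B2N against B1N, 197 genes (1.29%) were called, 88 higher (0.577%) and 109 lower (0.715%). The authors' deposited table, made with Cuffdiff, had 1403 genes at q below 0.05 among the 14315 it tested (9.8%), and 394 (80.1%) of the 492 were there in the same direction.

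Many of the largest differences lay in and around the H2 complex. Its class I genes encode chains that display peptides from inside cells to CD8 T cells, and its class II genes encode chains with which dendritic cells, macrophages and B cells display ingested antigen to CD4 T cells. H2-Ea-ps, the gene of the class II E alpha chain, which C57BL/6 and other strains of the same H2 haplotype are known not to transcribe, had 5227, 6436 and 5166 fragments in B2H and 4, 0 and 0 fragments in B1H. The ratio per library size was 3.57e+03, with an exact 95% interval of 1.4e+03 to 1.31e+04 that covers counting error only. In the authors' deposited table its q was 0.152. In normoxia it averaged 176 CPM in B2N and 0.0286 CPM in B1N, so the libraries of the 2 lines were fully separated at this gene in both exposures. Of the 29 H2 genes tested of 32 listed, 7 were called higher and 8 lower in B2H, where 1.46% and 1.76% of all genes were. Their median log2 change was -0.09.

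The higher H2 genes were of class I or class I-like except H2-Ea-ps. H2-M2, a class Ib gene, stood at 10.7, 12.2 and 10.9 CPM in B2H and at 0.0915, 0.436 and 0.0626 CPM in B1H, a log2 change of 5.70 ± 0.51 (adjusted p = 0.000163). H2-Q10, which encodes a secreted class I molecule best known from liver, stood at 113, 120 and 133 CPM in B2H and at 4.26, 3.49 and 7.07 CPM in B1H (log2 change 4.65 ± 0.44, adjusted p = 0.000247). H2-Q2 and H2-Q1 were higher by 4.56 and 3.72 on the log2 scale, and the class I pseudogene H2-K2 by 3.17. None of these groups overlapped, and the same 5 genes were called higher in normoxia, by 3.39 for H2-M2, 5.45 for H2-Q10, 3.42 for H2-Q2, 2.12 for H2-Q1 and 3.01 for H2-K2. C4a, a close relative of the complement gene C4b that lies in the same region, was higher by 4.88 ± 0.44 (adjusted p = 0.000179) in hypoxia and 4.16 in normoxia. H2-Q and H2-K genes are near copies of each other, so how fragments were shared among them is uncertain, and reads from a strain that differs from the reference may map elsewhere, which was not tested.

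The lower H2 genes were mostly of class II and its loading machinery. H2-Ob, which encodes the beta chain of H2-O, an inhibitor of peptide loading, stood at 3.94, 2.78 and 3.01 CPM in B2H and at 11.4, 22.4 and 19.5 CPM in B1H. The groups did not overlap (log2 change -2.45 ± 0.25, adjusted p = 0.000382), whereas B2N averaged 10.1 CPM and B1N 10.9 CPM, and the 2 line differences themselves differed (by -2.34, adjusted p = 0.0119). The classical class II chain gene H2-Aa stood at 235, 264 and 225 CPM in B2H and at 369, 435 and 595 CPM in B1H (log2 change -0.95, adjusted p = 0.00942). H2-Eb1 was lower by -0.68, H2-Eb2 by -2.31, H2-Oa by -1.73 and the peptide editors H2-DMa and H2-DMb1 by -0.80 and -0.93, all called. The class I gene H2-K1 was lower as well, by -1.09 (adjusted p = 0.0159). Of class II genes that were not called, H2-Ab1 was at -0.50, while H2-DMb2 went the other way, at 0.93. How fragments were shared between H2-DMb1 and H2-DMb2 was not tested. None of the class II genes other than H2-Ob was called for a difference between exposures. The number of H2 genes called lower was 5 without B1H replicate 2 and 3 to 10 when 1 hypoxia library at a time was left out. The 22 markers of dendritic cells, which include class II partners, summed to 2490 to 2940 CPM in B2H and 3050 to 5350 CPM in B1H, and B cell markers to 361 to 387 CPM in B2H and 385 to 476 CPM in B1H; their part in the lower class II RNA was not tested. Ciita, the coactivator that drives class II genes, stood at 50.3, 29.1 and 26.3 CPM in B2H and at 32.8, 59.1 and 22.1 CPM in B1H, overlapping groups with no call (adjusted p = 0.884).

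Class II promoters share an upstream module whose Y box, CTGATTGG read on either strand, binds the factor NF-Y. The RefSeq windows of 250 bases before to 50 after the start (build GRCm38.p6) hold this motif in 4 of the 7 class II genes called lower, H2-Aa, H2-Eb1, H2-Eb2 and H2-Oa, and in 4.1% of all 32851 windows; H2-Ob, H2-DMa and H2-DMb1 have no exact match. The windows are shown, 5′ to 3′ on the gene's strand, because these genes moved together; capitals mark the Y box, whose first base lies 46 to 103 bases before the start. They are reference sequence, and the sequence carried by either line was not read. H2-Aa lies at chr17:34287774-34288073, minus strand, H2-Eb1 at chr17:34305617-34305916, H2-Eb2 at chr17:34325425-34325724 and H2-Oa at chr17:34092129-34092428, all 3 on the plus strand.
H2-Aa: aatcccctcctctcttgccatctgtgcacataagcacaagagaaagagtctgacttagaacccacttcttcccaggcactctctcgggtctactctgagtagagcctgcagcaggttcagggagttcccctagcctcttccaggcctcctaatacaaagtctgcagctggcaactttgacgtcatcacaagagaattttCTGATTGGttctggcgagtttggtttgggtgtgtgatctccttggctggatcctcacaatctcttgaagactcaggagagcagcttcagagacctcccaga
H2-Eb1: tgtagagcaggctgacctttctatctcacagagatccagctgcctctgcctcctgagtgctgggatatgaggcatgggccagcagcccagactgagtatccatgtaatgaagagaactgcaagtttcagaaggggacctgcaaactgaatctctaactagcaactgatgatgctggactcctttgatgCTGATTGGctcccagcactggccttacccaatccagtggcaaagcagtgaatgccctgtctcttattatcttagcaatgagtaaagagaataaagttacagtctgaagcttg
H2-Eb2: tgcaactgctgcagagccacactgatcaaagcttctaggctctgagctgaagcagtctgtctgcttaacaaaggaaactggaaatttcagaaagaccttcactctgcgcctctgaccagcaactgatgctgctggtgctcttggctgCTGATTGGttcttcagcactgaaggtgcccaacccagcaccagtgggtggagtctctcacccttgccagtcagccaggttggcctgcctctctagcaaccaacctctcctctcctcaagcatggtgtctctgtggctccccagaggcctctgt
H2-Oa: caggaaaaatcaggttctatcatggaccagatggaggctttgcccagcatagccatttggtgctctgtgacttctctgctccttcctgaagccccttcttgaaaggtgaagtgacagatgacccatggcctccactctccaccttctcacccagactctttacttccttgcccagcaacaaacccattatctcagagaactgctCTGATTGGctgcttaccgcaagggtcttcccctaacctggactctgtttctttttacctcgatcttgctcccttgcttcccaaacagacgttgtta

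Chromosome 17 held other large differences, in genes that are not H2 genes and of which Rps18 alone lies in the H2 complex. Atp6v0c, which encodes the proteolipid ring subunit of the proton pump of lysosomes, stood at 4.33, 4.43 and 4.36 CPM in B2H and at 26, 24.4 and 18.5 CPM in B1H. It was lower by -2.39 ± 0.15 (adjusted p = 1.16e-05) in hypoxia and by -2.71 in normoxia, with no overlap of groups in either. Lama1, the alpha 1 chain of laminin, was lower in hypoxia by -2.31 ± 0.27 (adjusted p = 0.00112). Rps18, a ribosomal protein gene inside the H2 complex, had 5 fragments in all in B2H and 1526 in B1H, of which 821 came from B1H replicate 2. Ribosomal protein genes have many processed copies in the genome, so that count is uncertain, and the Rps18 call held in 3 of the 6 fits that left out 1 hypoxia library. On chromosome 17 as a whole 61 of 759 genes tested were called (8.04%), and in its stretch from 30 to 40 Mb 32 of 201 (15.9%), 16 in each direction, against 3.23% of all genes.

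**Figure D1:**
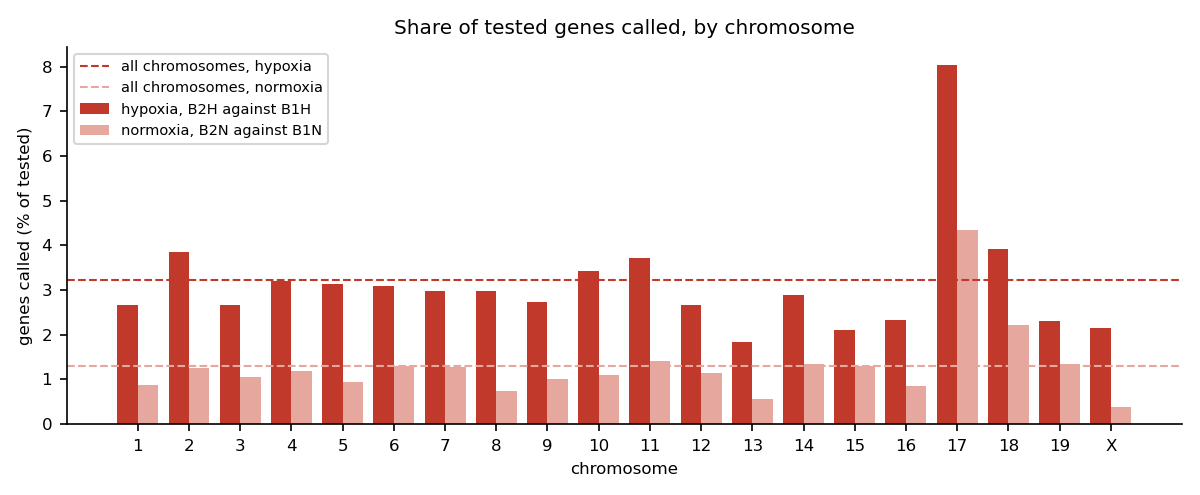
Share of the genes tested on each chromosome that were called (percent), for hypoxia (dark bars, B2H against B1H) and normoxia (light bars, B2N against B1N), with dashed lines at the shares over all genes. Chromosome 17 stands above every other chromosome shown in both comparisons, at 8.04% in hypoxia and 4.35% in normoxia, against 3.23% and 1.29% of all genes.

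Another cluster flanked Arrb1. Within 10 Mb of it 14 of 149 genes tested were called (9.4%). About 4.6 to 4.9 Mb beyond Arrb1 lies a family of Trim genes, ubiquitin ligases related to the antiviral factor Trim5. Trim12a had 338, 418 and 405 fragments in B2H and 0 in each B1H library, which makes it at least 329-fold higher against a floor of 3 fragments over the group. Trim30d had 236, 245 and 208 fragments in B2H and 0 in each B1H library, at least 195-fold higher. Both were also called higher in normoxia, where B1N averaged 0.0137 CPM for Trim12a and 0.0896 CPM for Trim30d. Trim34a stood at 14.6, 12.2 and 14.2 CPM in B2H and at 2.01, 2.10 and 0.876 CPM in B1H (log2 change 3.0 ± 0.24, adjusted p = 7.54e-05). Its neighbour Trim34b went the other way, with 1, 3 and 1 fragments in B2H and 39, 55 and 14 in B1H. Trim34a and Trim34b are near copies, so the split between them is uncertain. Trim12c, 4.73 Mb after Arrb1, was called lower in hypoxia and not called in normoxia. How fragments were shared between Trim12a and Trim12c was not tested, so the fold of Trim12a is uncertain as well. Nearer to Arrb1, Myo7a, an unconventional myosin, was higher by 1.72 ± 0.13 (adjusted p = 4.97e-05) in hypoxia and 1.56 in normoxia, and Slco2b1, an organic anion carrier that starts 0.05 Mb after Arrb1, by 0.81 ± 0.10 (adjusted p = 0.00146) in hypoxia, with no call in normoxia. P4ha3, a prolyl hydroxylase subunit for collagen that lies 0.68 Mb away, was lower by -2.11 ± 0.37 (adjusted p = 0.014). Lrrc32, which anchors latent TGF-β on regulatory T cells and endothelium, was called in opposite directions, at 0.64 in hypoxia and -0.63 in normoxia, and the difference was called too (1.27, adjusted p = 0.00525).

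Around Arrb2, 16 of 323 genes tested within 10 Mb were called (4.95%), closer to the background of 3.23%. Xaf1, an interferon-induced gene that counters an inhibitor of apoptosis, stood at 118, 95.1 and 84.9 CPM in B2H and at 19.5, 19.9 and 31.6 CPM in B1H. It was higher by 2.08 ± 0.22 (adjusted p = 0.000446) in hypoxia and 2.55 in normoxia, and it was the single call among 52 interferon stimulated genes tested. Tlcd2 was higher by 2.22 in hypoxia and 1.60 in normoxia, and Kctd11 lower by -0.56 and -0.72, so these 3 genes differed between lines in both exposures. Doc2b, a calcium sensor of vesicle fusion, stood at 4.38, 9.45 and 12.0 CPM in B2H and at 0.641, 0.611 and 0.250 CPM in B1H (log2 change 4.04 ± 0.48, adjusted p = 0.00117). In normoxia it was not called (0.80, adjusted p = 0.306), and the difference was (3.25, adjusted p = 0.0308). Inpp5k, a phosphoinositide phosphatase, was higher by 0.59 and Bcl6b, an endothelial transcription repressor, lower by -0.66. Cxcl16, a chemokine gene 0.01 Mb from Arrb2 and named after its values were seen, stood at 64.6, 76.8 and 74.2 CPM in B2H and at 102, 99.3 and 119 CPM in B1H (log2 change -0.57, adjusted p = 0.0155).

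Most of the hypoxia calls were not called in normoxia, though the shared part was above the shares over all genes. Called in both with the same direction were 46 genes, 27 higher and 19 lower, which is 9.35% of the hypoxia calls and 23.4% of the normoxia calls; 7 were called in opposite directions. Of all genes tested, 1.29% were called in normoxia and 3.23% in hypoxia. These comparisons share no library, but both come from the same fit and use the same estimate of each gene's spread. A gene with a small estimated spread is more readily called in both. How much of the shared part comes from that was not tested. Of the 46, 20 lay on chromosome 17, 7 on chromosome 11, 6 on chromosome 7, 4 on chromosome 4 and 3 on chromosome 18. The chromosome 18 genes belong to the protocadherin cluster, adhesion genes that share exons, and Pcdhgb8 there was lower by -2.46 ± 0.27 in hypoxia (adjusted p = 0.000605) and by -2.27 in normoxia, an uncertain value for that reason. Among all 492 hypoxia calls, 256 (52%) had the same sign in normoxia, against 38.9% of all genes.

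**Figure D2:**
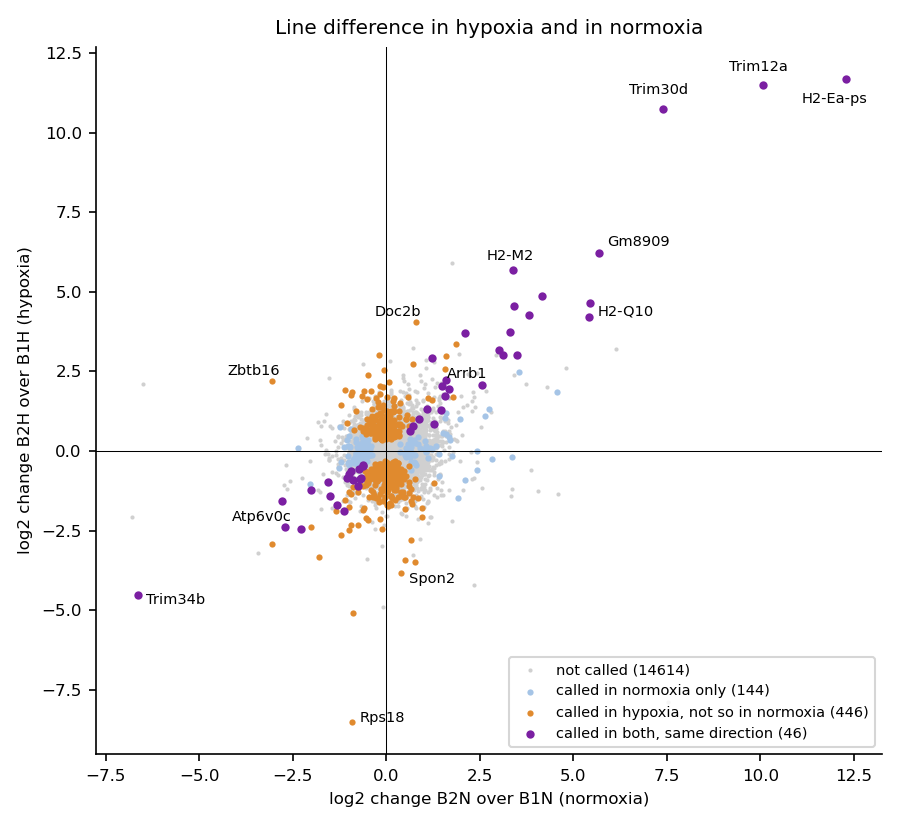
Log2 change of each tested gene between the lines in normoxia (horizontal axis, B2N over B1N) and in hypoxia (vertical axis, B2H over B1H), coloured by where it was called. The 46 genes called in both with the same direction (purple) include the farthest points, H2-Ea-ps, Trim12a and Trim30d, while most of the other hypoxia calls (orange) lie near 0 in normoxia, as Spon2 does, and Zbtb16 lies on opposite sides.

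Away from these chromosome stretches, genes of elastic fibres and extracellular matrix were called mostly lower in B2H. Of 59 tested, 9 were called lower and 2 higher, where 1.76% and 1.46% of all genes were, and 44 of the 59 changes were negative, with a median of -0.29 against -0.02 over all genes. Eln, which encodes elastin, stood at 251, 414 and 310 CPM in B2H and at 1233, 935 and 926 CPM in B1H. Loxl1, the oxidase that cross-links elastin, stood at 68.5, 86.2 and 73.7 CPM in B2H and at 187, 213 and 205 CPM in B1H. Spon2, a secreted matrix protein of the spondin family, stood at 1.86, 4.20 and 4.62 CPM in B2H and at 44.8, 46.4 and 62.4 CPM in B1H. The groups of these 3 genes were far apart, with log2 changes of -1.67 ± 0.20 for Eln (adjusted p = 0.00143), -1.4 ± 0.14 for Loxl1 (adjusted p = 0.000382) and -3.84 ± 0.28 for Spon2 (adjusted p = 3.48e-05). Mfap5, a microfibril protein on which elastin is laid down, was lower by -1.11 ± 0.18 (adjusted p = 0.00937). Also called lower were Col3a1, Col5a3, Timp1, Mmp3 and Adamts4, and called higher were Timp3 and Col8a1.

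None of the 59 matrix genes was called between the lines in normoxia, where the median was 0.04. The difference between the line differences was called lower for 8 of them and higher for 2, where 0.708% and 0.892% of all genes were. Over all genes the count of such calls ran from 28 to 1277 with 1 library left out. For Eln it was -2.36 (adjusted p = 0.00525), with means of 1059 CPM in B2N and 655 CPM in B1N, and for Spon2 it was -4.25 (adjusted p = 0.000688), with means of 97.6 CPM in B2N and 73.8 CPM in B1N. For Loxl1 it was -1.53 and for Mfap5 -1.23. Without B1H replicate 2 the count called lower was 15, and it was 5 to 15 when 1 hypoxia library at a time was left out. Fibroblast markers summed to 6470 to 7240 CPM in B2H and 6120 to 7700 CPM in B1H with none of 17 called. Mesothelial markers were lower in sum, at 2150 to 2720 CPM in B2H and 2730 to 3420 CPM in B1H, with 14 of 15 changes negative, a median of -0.75 and none called, but 4 called lower without B1H replicate 2; their part in the matrix difference was not tested.

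**Figure D3:**
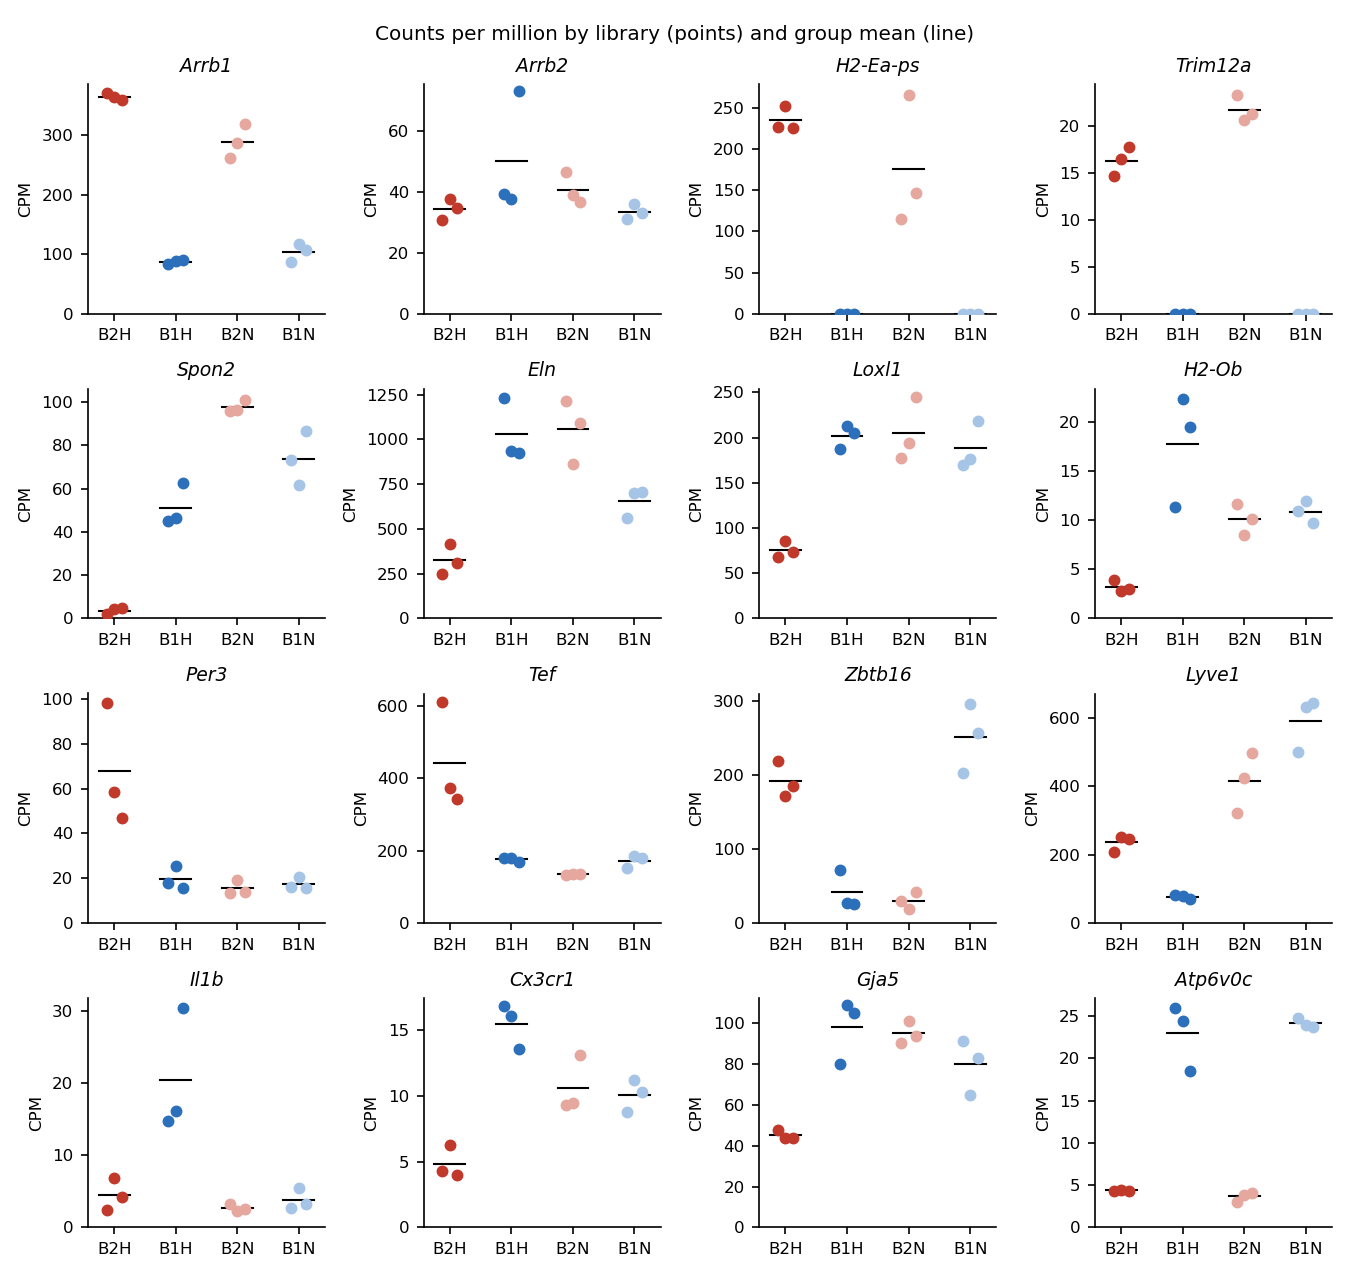
CPM of 16 genes in each library (points) with the group mean (line), for B2H, B1H, B2N and B1N from left to right in each panel. Arrb1, H2-Ea-ps and Trim12a separate the labels in both exposures, Eln, Loxl1 and Spon2 are low in B2H alone among the 4 groups, and Per3 and Tef are high in B2H alone.

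Several clock genes were higher in B2H. The circadian clock runs on a loop in which CLOCK and BMAL1 (Arntl) bind E-boxes and switch on Per and Cry genes, whose proteins then block them, while Tef, Hlf and Dbp act on D-boxes in output genes. Of 22 clock genes tested 7 were called higher and none lower, with a median log2 change of 0.48, where 1.46% of all genes were called higher. Per3 stood at 98.2, 58.5 and 47.0 CPM in B2H and at 17.9, 25.6 and 15.8 CPM in B1H (log2 change 1.78 ± 0.28, adjusted p = 0.00791). Per2 stood at 150, 86.9 and 101 CPM in B2H and at 53.9, 21.0 and 26.9 CPM in B1H (1.73 ± 0.32, adjusted p = 0.0162). Tef stood at 611, 373 and 342 CPM in B2H and at 181, 179 and 168 CPM in B1H (1.33 ± 0.18, adjusted p = 0.00309). In each of these the groups did not overlap, and B2H replicate 0 was the highest library.

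Cry2 was higher by 0.70 ± 0.10 (adjusted p = 0.00469), and Usp2, Per1 and Hlf were called higher as well. Per1 lies 1.32 Mb from Arrb2. In normoxia no clock gene was called and the median was -0.14. The difference between the line differences was called higher for 4, where 0.892% of all genes were. It was 1.95 for Per3, 2.38 for Per2, 1.70 for Tef and 0.93 for Cry2. Arntl and Dbp, named after their values were seen, were not called and varied within groups. Arntl stood at 3.38, 21.8 and 26.1 CPM in B2H and at 62.9, 36.7 and 46.3 CPM in B1H (adjusted p = 0.139), and Dbp at 213, 28.6 and 15.3 CPM in B2H and at 3.87, 29.0 and 5.62 CPM in B1H (adjusted p = 0.161). B2H replicate 0 was thus the lowest of the 6 in Arntl and the highest in Dbp. Without B2H replicate 0, 3 clock genes were called higher and 1 lower; the hour at which each lung was taken is not given in the labels.

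Motifs of the loop stand in some of these promoters. Windows were at hand for 6 of the 7 called clock genes. Of the 6, 2, Per1 and Tef, hold the E-box CACGTG, present in 7.15% of all windows. Per3 holds the D-box TTANGTAA, present in 2.32%. A gene was counted if any of its windows held the motif, so these counts and the shares of windows differ in unit. Per1 and Tef have more than 1 window: the other one of Tef holds the E-box too, and the other one of Per1 does not. 3 windows are shown because they carry the motifs of the genes that moved together, with the E-box in capitals for Per1 (chr11:69098699-69098998) and Tef (chr15:81802423-81802722), both on the plus strand, and the D-boxes in capitals for Per3 (chr4:151044616-151044915, minus strand), all from RefSeq on GRCm38.p6. Cry2, Usp2 and Hlf have no exact match of either motif in theirs.
Per1: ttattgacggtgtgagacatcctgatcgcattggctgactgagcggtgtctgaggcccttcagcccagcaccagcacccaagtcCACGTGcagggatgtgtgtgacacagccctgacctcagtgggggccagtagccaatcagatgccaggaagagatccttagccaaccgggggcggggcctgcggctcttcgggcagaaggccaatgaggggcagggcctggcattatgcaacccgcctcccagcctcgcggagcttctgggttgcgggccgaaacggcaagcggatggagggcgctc
Tef: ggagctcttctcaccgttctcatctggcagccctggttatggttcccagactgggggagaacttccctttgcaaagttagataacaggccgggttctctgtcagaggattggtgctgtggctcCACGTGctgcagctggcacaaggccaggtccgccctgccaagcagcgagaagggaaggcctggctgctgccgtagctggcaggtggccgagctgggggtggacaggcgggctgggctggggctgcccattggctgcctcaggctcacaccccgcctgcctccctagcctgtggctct
Per3: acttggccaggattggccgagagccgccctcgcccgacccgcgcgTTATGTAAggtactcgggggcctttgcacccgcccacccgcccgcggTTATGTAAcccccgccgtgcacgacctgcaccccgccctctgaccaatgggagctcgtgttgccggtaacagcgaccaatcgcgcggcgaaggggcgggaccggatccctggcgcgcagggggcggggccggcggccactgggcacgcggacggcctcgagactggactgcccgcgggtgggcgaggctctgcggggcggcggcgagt

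Genes responsive to glucocorticoids and fasting that were called were mostly higher in B2H. Of 29 tested, 9 were called higher and 1 lower, with a median of 0.52, where 1.46% and 1.76% of all genes were called. Fam107a, an actin-binding stress gene, stood at 169, 150 and 128 CPM in B2H and at 48.3, 13.8 and 14.1 CPM in B1H (log2 change 2.55 ± 0.41, adjusted p = 0.00942). Zbtb16, a transcription factor strongly induced by glucocorticoids, stood at 219, 172 and 185 CPM in B2H and at 72.1, 27.1 and 25.9 CPM in B1H (2.20 ± 0.39, adjusted p = 0.014). Klf15, a metabolic transcription factor, was higher by 1.11 ± 0.21 (adjusted p = 0.0175). The groups of these 3 did not overlap, and B1H replicate 0 was the highest of its group in each. Zbtb16 was the gene whose line difference changed most with exposure among the genes named that were called for it: B2N averaged 30.2 CPM and B1N 251 CPM, a log2 change of -3.05 (adjusted p = 0.00453), and the difference between exposures was 5.25 (adjusted p = 0.00378).

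The other members called higher included Fkbp5, Tsc22d3, Ddit4, Pnpla2 and Per1, the last also a clock gene. Sgk1, a kinase that regulates sodium channels and that glucocorticoids are known to induce, was the one called lower, at 276, 326 and 288 CPM in B2H and 589, 500 and 509 CPM in B1H (-0.84 ± 0.10, adjusted p = 0.00112). Without B1H replicate 2 the list had 10 called higher, but it had 5, 3 and 2 without B2H replicates 0, 1 and 2 in turn; the calls of Fam107a and Zbtb16 held in all 6 fits that left out 1 hypoxia library. Adipocyte markers moved in the same direction, summing to 591 to 692 CPM in B2H and 262 to 470 CPM in B1H, with 14 of 15 changes positive, a median of 1.12 and none called (3 without B1H replicate 1). Their part in the higher metabolic genes was not tested.

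**Figure D4:**
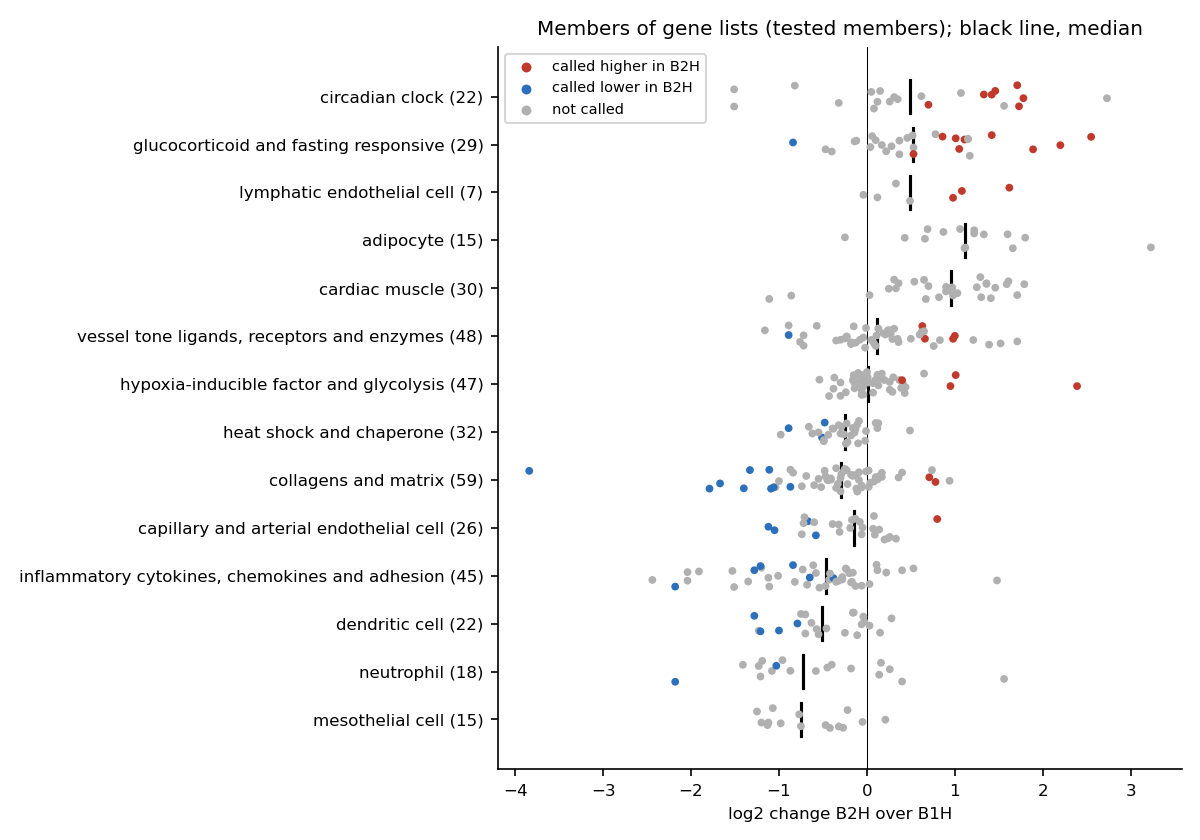
Log2 change B2H over B1H of the tested members of 14 gene lists (points, red called higher, blue called lower, grey not called) with the median of each list (black line) and the number tested in brackets. Clock and glucocorticoid genes lie mostly to the right of 0, at medians of 0.48 and 0.52, and matrix, inflammatory and dendritic cell genes to the left, at -0.29, -0.47 and -0.51, while cardiac and adipocyte markers lie to the right with none called.

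Endothelial markers were called in both directions. Of 7 lymphatic markers tested 3 were called higher in B2H and none lower, against 1.46% and 1.76% of all genes. Lyve1, a hyaluronan receptor of lymphatic endothelium and of some macrophages, stood at 208, 253 and 247 CPM in B2H and at 80.6, 78.6 and 70.9 CPM in B1H (log2 change 1.62 ± 0.16, adjusted p = 0.00033). Mmrn1, a matrix protein stored in endothelium, was higher by 0.98 ± 0.11 (adjusted p = 0.00109), and Reln, a secreted matrix glycoprotein, by 1.08 ± 0.15 (adjusted p = 0.00303). All 3 calls held in each of the 6 fits that left out 1 hypoxia library. In normoxia none of the 3 was called, and their changes had the opposite sign. Lyve1 averaged 415 CPM in B2N and 593 CPM in B1N there (adjusted p = 0.128). The difference between exposures was called for all 3, at 2.14 for Lyve1 and 1.40 for each of Mmrn1 and Reln. The master regulator Prox1 stood at 3.86, 4.04 and 3.36 CPM in B2H and at 2.29, 4.76 and 0.814 CPM in B1H, overlapping and not called, and Flt4, the receptor for Vegfc, was not called (0.33, adjusted p = 0.28). Vegfc itself, the growth factor of lymphatic vessels, was called higher, at 69.6, 54.1 and 51.9 CPM in B2H and 36.1, 23.1 and 29.8 CPM in B1H (0.98 ± 0.17, adjusted p = 0.014).

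Of 26 capillary and arterial markers 4 were called lower and 1 higher, with a median of -0.15, against 1.76% and 1.46% of all genes. Gja5, the connexin of arterial endothelium, stood at 47.6, 44.0 and 43.6 CPM in B2H and at 80.2, 109 and 105 CPM in B1H (log2 change -1.12 ± 0.14, adjusted p = 0.00162). Sox17, a transcription factor of arterial identity, was lower by -0.67 ± 0.11 (adjusted p = 0.00838), Emcn, a sialomucin of capillaries and veins, by -1.05 ± 0.18 (adjusted p = 0.0135) and Car4, a capillary carbonic anhydrase, by -0.58 ± 0.10 (adjusted p = 0.0132). Vwf, the clotting factor of larger vessels, was the one called higher (0.80, adjusted p = 0.0183). The pan-endothelial genes Pecam1 and Cdh5 were not called, at log2 changes of -0.05 and -0.17. Gja5 was the sole one of these 5 with a called difference between exposures (-1.37, adjusted p = 0.0113). Lamc3, a laminin chain that marks pericytes, was the 1 call of 17 pericyte markers (3 without B1H replicate 2), at 82.5, 76.5 and 68.7 CPM in B2H and 43.1, 44.3 and 29.5 CPM in B1H (0.96 ± 0.15, adjusted p = 0.00917).

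Inflammatory genes were lower in B2H where they were called. Of 45 cytokine, chemokine and adhesion genes tested 6 were called lower and none higher, and 38 of the 45 changes were negative, with a median of -0.47; of all genes 1.76% were called lower, and their median was -0.02. Il1b, the cytokine interleukin 1 beta, stood at 2.38, 6.82 and 4.27 CPM in B2H and at 14.7, 16.1 and 30.4 CPM in B1H (log2 change -2.18 ± 0.40, adjusted p = 0.0165). Ccl22, a chemokine that draws regulatory T cells, was lower by -1.21 ± 0.20 (adjusted p = 0.0112), Il1a by -0.84 ± 0.19 (adjusted p = 0.0346) and Chi3l1, a chitinase-like protein, by -0.65 ± 0.13 (adjusted p = 0.0246). Ccl17 and Nfkb2 were the other 2 called. In normoxia the median was 0.00 and 1 member was called lower, where 0.715% of all genes were. The difference between exposures was called for 1 member, Ccl22 (-1.47, adjusted p = 0.0306), where 1.6% of all genes were called. Left-out libraries moved the count of lower calls between 1 and 6; it was 5 without B1H replicate 2.

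Markers of myeloid cells that were called were mostly lower as well. Of 22 dendritic cell markers 4 were called lower (3 without B1H replicate 2), against 1.76% of all genes, among them Cd83, a surface protein of mature dendritic cells, at 8.45, 8.86 and 8.67 CPM in B2H and 15.6, 14.5 and 22.2 CPM in B1H (-1.0 ± 0.15, adjusted p = 0.00596), and the lectin Mgl2 (-0.79, adjusted p = 0.0234). The others were Ccl17 and Ccl22, which are already counted among the inflammatory genes, and Mgl2 lies 0.30 Mb from Arrb2. Of 23 markers of monocytes and interstitial macrophages 3 were called lower and 1, Lyve1, higher, but the count called lower was 1 without B1H replicate 2 and 1 to 4 with 1 hypoxia library left out. Cx3cr1, the fractalkine receptor of patrolling monocytes, stood at 4.29, 6.24 and 3.97 CPM in B2H and at 16.8, 16.1 and 13.6 CPM in B1H (-1.68 ± 0.20, adjusted p = 0.00138), and its difference between exposures was called (-1.75, adjusted p = 0.0191). Ccr2, the receptor that brings monocytes out of the marrow, was lower by -0.82 (adjusted p = 0.0478) and Ms4a7 by -1.11 (adjusted p = 0.0301), and each of these calls held in 1 of the 6 fits that left out 1 hypoxia library. Neutrophil markers summed to 271 to 382 CPM in B2H and 384 to 678 CPM in B1H, with a median of -0.73 and 2 of 18 called lower, Il1b and Hdc, the enzyme that makes histamine. Il1b is also counted among the inflammatory genes. The mast cell protease Tpsb2 was called higher with 33, 19 and 34 fragments in B2H and 2, 6 and 1 fragments in B1H; it lies on chromosome 17 and was called in normoxia too. The complement component gene Hc stood at 30.5, 167 and 73.6 CPM in B2H and at 510, 458 and 545 CPM in B1H, lower by -2.48 ± 0.54 (adjusted p = 0.0321), a call that held in 2 of 6 fits without 1 hypoxia library.

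Among receptors and enzymes of vessel tone, 4 of 48 were called higher in B2H and 1 lower, with a median of 0.12, where 1.46% and 1.76% of all genes were called. The counts were 5 and 3 without B1H replicate 2, and 2 to 5 higher and 0 to 3 lower with 1 hypoxia library left out. The angiotensin receptor Agtr1a, which contracts vessels, stood at 32.9, 39.2 and 38.2 CPM in B2H and at 26.4, 20.8 and 22.5 CPM in B1H. Its groups did not overlap (log2 change 0.66 ± 0.12, adjusted p = 0.014). Ptgs1, the cyclooxygenase that feeds thromboxane and prostacyclin synthesis, was also called higher (0.63). The α1D-adrenergic receptor Adra1d was higher by 0.98 ± 0.17 (adjusted p = 0.0128), an uncertain value, since its entry spans a stretch from 131127412 to 131604824 on chromosome 2 of mm10 that it shares with neighbouring genes in the table, and its q in the authors' deposited table was 0.899. The thromboxane receptor Tbxa2r was lower by -0.89 ± 0.17 (adjusted p = 0.0166). Adra1d, Agtr1a and Tbxa2r had the opposite sign in normoxia, at -0.08, -0.22 and 0.47, with no call there. The difference was called for Agtr1a (0.88) and Tbxa2r (-1.36). None of the 23 smooth muscle contractile genes was called, with a median of 0.14.

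Of 20 arrestins, receptor kinases and RGS genes tested, Arrb1 and Arrdc2 were called higher and Arrdc4 lower, where 1.46% and 1.76% of all genes were. The Arrdc2 call (0.63, adjusted p = 0.0492) held in 2 of the 6 fits that left out 1 hypoxia library. Arrdc4, an α-arrestin that dampens glucose uptake, stood at 46.0, 42.5 and 40.0 CPM in B2H and at 67.1, 73.4 and 72.8 CPM in B1H (-0.73 ± 0.11, adjusted p = 0.00535). In the BMP and TGF-β pathway, 3 of 45 were called, Id2, a target of BMP signals, at -0.59 ± 0.09 (adjusted p = 0.00656), the ligand Tgfb3 at -0.48 and the co-receptor Tgfbr3 at 0.67. All 3 had a called difference between exposures, at -0.73, -0.76 and 0.90. The hypoxia call of Id2 held in all 6 of those fits, and those of Tgfb3 and Tgfbr3 in 2 each. Of 47 Notch and Wnt genes the ligand Dll1 was higher (0.62) and the Wnt inhibitor Sfrp2 (-1.46) and receptor Fzd2 (-0.59) were lower. Of the 6 fits that left out 1 hypoxia library, the call held in 3 for Dll1, 2 for Sfrp2 and 0 for Fzd2. Besides Vegfc, Pdgfb, the growth factor that recruits pericytes, was called among 38 angiogenic genes, at -0.65 (adjusted p = 0.0492). The Pdgfb call held in 1 of those 6 fits. At 3 of 45, 3 of 47 and 2 of 38 these lists lay near the share of all genes, 3.23%.

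Of 47 genes of the hypoxia response 4 were called, all higher, with a median of 0.01, against 1.46% of all genes. The count was 1 to 6 with 1 hypoxia library left out, and 1 without B2H replicate 1. Hif3a, a relative of the hypoxia-inducible factors that can dampen them, stood at 13.3, 18.4 and 17 CPM in B2H and at 5.36, 1.70 and 2.13 CPM in B1H (2.39 ± 0.38, adjusted p = 0.00794). Pfkfb3, which speeds glycolysis, was higher by 0.95 ± 0.17 (adjusted p = 0.0159), and Ddit4, an inhibitor of mTOR that is also in the glucocorticoid list, by 1.01 ± 0.21 (adjusted p = 0.0253). Hif3a and Pfkfb3 were called for the difference between exposures (2.87 and 1.29). Of 32 heat shock and chaperone genes 3 were called lower, against 1.76% of all genes, and 1 to 5 with 1 hypoxia library left out. The 3 are of the endoplasmic reticulum: Sdf2l1 (-0.89 ± 0.15, adjusted p = 0.00947), Pdia6 (-0.51 ± 0.09) and Hsp90b1 (-0.48 ± 0.10). The median of the list was -0.25 in hypoxia and -0.54 in normoxia, where 3 members were called lower too. Sdf2l1 was lower in normoxia as well, by -0.71 (adjusted p = 0.0395).

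Cardiac muscle genes varied widely within groups and gave no call. Their 30 markers summed to 2430 to 4360 CPM in B2H and 404 to 3130 CPM in B1H, with 28 changes positive and a median of 0.95. Myh6, the atrial myosin, stood at 1314, 706 and 650 CPM in B2H and at 69.9, 724 and 78.1 CPM in B1H. B1H replicate 1 was thus within the range of B2H while the other 2 were far below it. Atp2a1, a muscle calcium pump of the skeletal muscle list, was called higher (2.99, adjusted p = 0.0443), and B1H replicate 1 was the highest of its group there too. It was the 1 call of 7 skeletal muscle genes tested, whose median was -0.09. The call held in 1 of the 6 fits that left out 1 hypoxia library, and its q in the authors' deposited table was 0.13. Club cell markers gave 1 call of 17, Aldh1a1, a retinal dehydrogenase (0.61, adjusted p = 0.0355), with a median of 0.61. No member was called among genes of sterol and fatty acid synthesis, immediate early genes, cell cycle genes, potassium and calcium channels, oxidative defence, ciliated cells, erythroid cells, T and NK cells, B cells and pleural macrophages. With 1 hypoxia library left out some of these gained calls, up to 6 lower for T and NK cells without B1H replicate 0.

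Across all genes, 244 (1.6%) were called for a difference between the line difference in hypoxia and that in normoxia, 136 (0.892%) higher and 108 (0.708%) lower in hypoxia. Besides Zbtb16, Doc2b and Hif3a the highest were Myrip, a linker of Rab27a vesicles to myosin, at 3.0 (adjusted p = 0.00835), and the transcription factor gene Tcf23 at 2.75 (adjusted p = 0.0307). Myrip stood at 110, 121 and 98.8 CPM in B2H and at 43.3, 22.4 and 22.2 CPM in B1H, and averaged 23.6 CPM in B2N and 50.3 CPM in B1N. The lowest besides Spon2 were Slpi, a secreted protease inhibitor (-3.31), Slurp1, a secreted Ly6 protein (-3.03), Aif1, a macrophage gene (-2.71), and Rec8, a meiotic cohesin (-2.43). Slurp1 was called lower in hypoxia (-2.06, adjusted p = 0.0162), whereas Slpi (-1.24) and Aif1 (-1.58) were not called there. Rec8 was not called in hypoxia, with B2H at 3.86, 6.98 and 6.54 CPM and B1H at 3.66, 5.85 and 8.01 CPM, and its call comes from normoxia, where it was higher by 2.43 in B2N. The bin of 20 to 30 Mb on chromosome 18 held 3 calls of 25 genes tested, Tpgs2 (-0.45), Dtna (0.75) and Rnf138 (-0.41), a count too small to set apart.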

How the data were processed

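Poly(A) RNA of 12 mouse lung libraries, 3 in each of the groups B2H, B1H, B2N and B1N, was analysed. The deposited estimated counts are raw fragments per gene, and 93.3% of them are whole numbers, per the file headers and values. The authors used FastQC, TopHat and Cuffdiff with mm10, per the submitters' processing notes; no source used here gives their versions. The authors' FPKM values, also deposited, served an alternative test, and the authors' deposited p-values and q-values served for comparison, with the direction taken from the sign of the authors' deposited test score. The library kit named by the labels does not mark strand, so antisense and overlapping genes cannot be told apart.

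Of 23356 features, 5 with status HIDATA were left out and 20 with FAIL in some library were kept. Estimated counts were rounded. Genes were kept by filterByExpr, scaled by TMM and tested with edgeR 4.0.16's quasi-likelihood test in R 4.3.3 on all 12 libraries together, with Benjamini-Hochberg adjustment over 15250 genes at a threshold of 0.05. Contrasts were B2H minus B1H, B2N minus B1N and their difference. The test was tried on simulated data. Alternatives used DESeq2 1.42.0, limma 3.58.1 on log2-transformed FPKM with 1 or 0.1 added, other sets of libraries and 1 library left out. Errors of log2 changes are SE; an interval of a ratio is exact (95%) and covers counting error only.

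The members and the 40 gene lists were chosen with earlier results of these data known. Genes named were the arrestins, the 10 highest and 10 lowest called genes with mean log2 CPM of at least 1 and groups that do not overlap, up to 4 called members a list, 5 in each direction for the difference between exposures, up to 6 called within 10 Mb of each arrestin gene and up to 4 in each of the 3 bins of 10 Mb with the highest share called. Unnamed gene models were left out, and some called list members are counted but not reported here. Other genes, such as the class II genes, Ciita, Trim12c, Arntl, Dbp, Prox1, Flt4, Pecam1, Cdh5, Vwf, Myh6 and Cxcl16, were named after their values were seen. Promoter windows are from RefSeq, GRCm38.p6.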

Additional observations from a re-analysis of the deposited data

Results flagged for a closer look

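A test of the difference itself, the interaction of line and exposure in edgeR's quasi-likelihood test, set the following named genes apart: the line difference in hypoxia (B2H over B1H) minus that in normoxia (B2N over B1N) was past an adjusted p of 0.05. Values are on the log2 scale, and positive ones mean that B2H stood higher relative to B1H than B2N did relative to B1N. No explanation was tested for any of them.

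Among clock, glucocorticoid and metabolic genes it was 5.25 for Zbtb16, 2.61 for Fam107a, 2.38 for Per2, 1.95 for Per3, 1.70 for Tef, 0.93 for Cry2, 2.87 for Hif3a and 1.29 for Pfkfb3. Among matrix genes it was -4.25 for Spon2, -2.36 for Eln, -1.53 for Loxl1 and -1.23 for Mfap5. Among endothelial and pericyte genes it was 2.14 for Lyve1, 1.40 for Mmrn1, 1.40 for Reln, 1.42 for Lamc3 and -1.37 for Gja5.

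Among immune genes it was -2.34 for H2-Ob, -1.75 for Cx3cr1, -1.47 for Ccl22, -1.12 for Cd83, -2.71 for Aif1, -3.31 for Slpi, -3.03 for Slurp1 and 1.27 for Lrrc32. Among receptors and signalling genes it was 0.88 for Agtr1a, -1.36 for Tbxa2r, -0.73 for Id2, 0.90 for Tgfbr3, -0.76 for Tgfb3, -1.93 for Sfrp2 and 0.85 for Dll1. The others were Doc2b (3.25), Myrip (3.0), Tcf23 (2.75), Rec8 (-2.43) and Rnf138 (-0.65). Each of the 4 groups behind these values holds 3 libraries, and the count of such calls moved widely when 1 library was left out.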

How the results depend on the processing

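The 492 genes called between B2H and B1H became 1076 with DESeq2, 280 with limma on log2(FPKM + 1) without a filter and 67 with the 6 hypoxia libraries fitted alone, and 168 to 670 when 1 hypoxia library was left out. The 197 called between B2N and B1N became 840 with DESeq2, 42 to 154 with 1 normoxia library left out and 718 without the 2 libraries of lowest total, a setting chosen after seeing the data. The 244 called for the difference between exposures became 1370 with DESeq2, 111 with limma without a filter, 367 with all 18 libraries fitted, 514 without the 2 libraries of lowest total and 28 to 1277 with 1 library left out, the highest without B1H replicate 0. The cause was not tested. Without B1H replicate 2 the hypoxia count was 533. Whether same-numbered replicates share more than a number was not settled. Correlations of their deviations ran from -0.33 to 0.25 between B2H and B1H, and from -0.55 to 0.61 over all pairs of groups. Between B2N and B1N they were 0.44, -0.1 and 0.61 for replicates 0, 1 and 2. Of 12 libraries, 6 correlated best with their own number. A replicate block gave 410 calls in hypoxia, 119 in normoxia and 121 for the difference between exposures. Of the hypoxia calls, 113 held in all 6 fits that left out 1 hypoxia library, and 39 of the 91 named genes other than the arrestins were not called without at least 1 of them. Arrb1 stayed called and Arrb2 uncalled under each alternative. Rec8, at -0.00 in hypoxia, changed sign to 0.01 with DESeq2, DESeq2's size factors, no filter, limma with 1 added to FPKM with or without a filter, the 6 libraries alone and the block, to 0.02 with 0.1 added, to 0.28 without the 2 libraries of lowest total, and ran from -0.25 to 0.30 with 1 library left out.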
